A study of Mus musculus with 4 samples.

Results

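The genes described here encode the insulin and insulin-like growth factor (IGF) receptor pathway: the receptors Insr and Igf1r, the receptor substrates Irs1 and Irs2, the ligands Igf1 and Igf2, the kinases Akt1 and Akt2 and the transcription factor Foxo1. They were chosen by name, as the rows of the deposited count table with these symbols, and all 9 of 9 were found among 23420 genes. All 9 passed the filter on low counts that left 14649 genes to test. The libraries were made from pancreatic β-cells sorted from mice after 10 days of doxycycline. Doxycycline induced ablation of β-cells through DTA (diphtheria toxin A), so the cells measured are those present after it. Of 4 libraries, 2 were from mice labelled Bmal1KO/DTA, a knockout of the clock gene Bmal1 (symbol Arntl), and 2 from mice labelled Bmal1+/-DTA, which keep 1 copy; DTA and doxycycline were common to both groups. The promoter that drives DTA, the way Bmal1 was deleted, the age of the mice and the number of mice behind a library are not stated in the labels. Separate animals are not stated either, so that p-values refer to the spread between libraries. The part of that spread that is technical is not known. Sex-linked RNA, given below, differed between the KO replicates and also lay apart between the labels.

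Insulin and the IGFs bind receptor tyrosine kinases, which phosphorylate the IRS adaptors. The adaptors recruit PI3-kinase, PI3-kinase activates AKT, and AKT phosphorylates FOXO1 so that it leaves the nucleus. β-Cells carry this pathway themselves, and IRS2 in particular is known for its part in maintaining β-cell mass in mice. Transcription of Irs2 is itself under control of FOXO factors, which bind an insulin response sequence in its promoter, and the clock factor BMAL1 binds DNA at the E-box CACGTG.

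The promoters of the 2 receptor substrate genes are shown because Irs2 had the highest level of the 9 genes and because they alone, among 15 windows of the 8 genes matched by symbol in RefSeq's promoter table (GRCm38.p6), held an E-box. Insr had no window there. Each window runs from 250 bases before a start to 50 bases after it, and only the 250 bases before the start are printed, 5′ to 3′ on the gene's strand. Capitals mark CACGTG and the insulin response sequence CAAAACA, which reads TGTTTTG on the printed strand; both strands were searched. Irs1 lies at chr1:82291440-82291689 (minus strand) and Irs2 at chr8:11008930-11009179 (minus strand).
Irs1: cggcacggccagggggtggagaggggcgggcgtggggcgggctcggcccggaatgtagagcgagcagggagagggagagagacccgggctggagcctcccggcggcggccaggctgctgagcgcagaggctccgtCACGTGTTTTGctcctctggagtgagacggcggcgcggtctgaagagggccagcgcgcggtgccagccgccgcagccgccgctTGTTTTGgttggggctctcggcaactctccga
Irs2: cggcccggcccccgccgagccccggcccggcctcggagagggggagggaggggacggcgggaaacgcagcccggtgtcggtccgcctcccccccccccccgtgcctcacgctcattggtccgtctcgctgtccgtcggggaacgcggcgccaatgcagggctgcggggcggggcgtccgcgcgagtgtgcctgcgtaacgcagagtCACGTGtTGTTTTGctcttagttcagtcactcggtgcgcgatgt
In Irs1 the E-box covers bases 115 to 110 before the start and shares 2 bases with the motif TGTTTTG from bases 111 to 105, and another TGTTTTG lies at bases 32 to 26. In Irs2 the E-box covers bases 44 to 39 and is followed, after 1 base, by TGTTTTG at bases 37 to 31. These distances are from RefSeq's starts. GENCODE M21 places the starts further downstream, at base 82291416 for Irs1 and at base 11008458 for Irs2, and distances from there would be longer. Of all 32851 windows in the table, 7.15% held CACGTG and 6.28% held CAAAACA, and 19 windows (0.0578%), these 2 among them, held both starting within 20 bases of each other; that pairing was looked for after it had been seen in Irs1 and Irs2. The FOXO element GTAAACA, in 3.65% of all windows, was found in 1 of the members' windows, that of Akt1, and TGACGTCA, the cyclic AMP response element (1.79% of windows), in 0 of them. AGGTCA, the core of the element bound by REV-ERB and ROR clock receptors (16.3% of windows), was found in 4 windows, 1 each of Igf1r, Igf1, Igf2 and Akt1. These are matches of letters and say nothing of binding.

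The libraries held 31056116 to 38020488 counts each. Their label as β-cells was checked against 10 markers: all 10 were detected in every library, and their summed level was 217669 to 276654 CPM (counts divided by the library's total in units of 1e6, after edgeR's TMM scaling). Ins2 made up most of that sum, at 151722 to 194550 CPM, so the sum says little of the less abundant markers. Of the 10, 3 were lower in the KO label (G6pc2, Ucn3 and Slc30a8) and 0 higher. Estimates were positive for 2 of the 10, and the median log2 fold change of the 10 was -0.45. Ins1, Pdx1, Nkx6-1 and Mafa also lay below in both libraries labelled KO, as did 23.8% of all tested genes. Ins1 and Pdx1 had an unadjusted p under 0.05 in edgeR's test but did not pass. RNA of other cells was present too, and of 6 tested markers of other islet cells 1, Irx2, was higher in the KO label. Glucagon (Gcg), the α-cell hormone, was at 1630 and 3303 CPM in KO replicates 1 and 2 and at 1340 and 1283 CPM in heterozygous replicates 1 and 2, and markers of stromal, immune, endothelial, acinar and duct cells were detected at lower levels. In bulk RNA, fewer cells of a type and less RNA per cell cannot be told apart. Arntl, the targeted gene, was at 75.8 and 65.6 CPM in KO replicates 1 and 2 and at 23.0 and 14.98 CPM in heterozygous replicates 1 and 2, higher in the KO label (edgeR adjusted p = 0.0175 for a log2 fold change of 1.89); the counts cover the whole gene and do not show whether a part is missing, so groups are called by their labels. KO replicate 1 stood apart in sex-linked RNA, with Xist at 8.68 CPM against 38.8, 72.3 and 67.5 CPM in KO replicate 2 and heterozygous replicates 1 and 2. Xist lay below in both libraries labelled KO (log2 fold change -1.56, edgeR unadjusted p = 0.0299, adjusted p = 0.233). The Y-linked gene Ddx3y lay above in both (1.79, edgeR unadjusted p = 0.0162, adjusted p = 0.176). Sex-linked RNA thus differed along with the label, and its part in the differences between the labels was not tested.

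To compare levels between genes, CPM was divided by the length of each gene's merged exons in GENCODE M21 (GRCm38). On this scale of CPM per kb, Irs2 was highest, with a mean of 30.5 over the 4 libraries, above 90.9% of the 13736 tested genes with a length. Akt1 followed with a mean of 17.0 CPM per kb, Foxo1 with 8.52 and Akt2 with 6.53. The receptors were lower, Igf1r at a mean of 1.57 and Insr at 1.18 CPM per kb, and Irs1 was at 0.47. The ligands came last, Igf2 at 0.274 and Igf1 at 0.215 CPM per kb, above 9.89% and 7.87% of tested genes. Neighbours whose ranges over the 4 libraries overlapped were Irs2 and Akt1, Foxo1 and Akt2, Igf1r and Insr, Irs1 and Igf2, and Igf2 and Igf1. The ranges did not overlap between Akt1 and Foxo1, Akt2 and Igf1r, or Insr and Irs1. The kinases, the substrate Irs2 and the factor Foxo1 were thus all at levels above both receptors in every library, while Irs1 was below Irs2 by 39.8 to 99.4 times within each library.

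**Figure D1:**
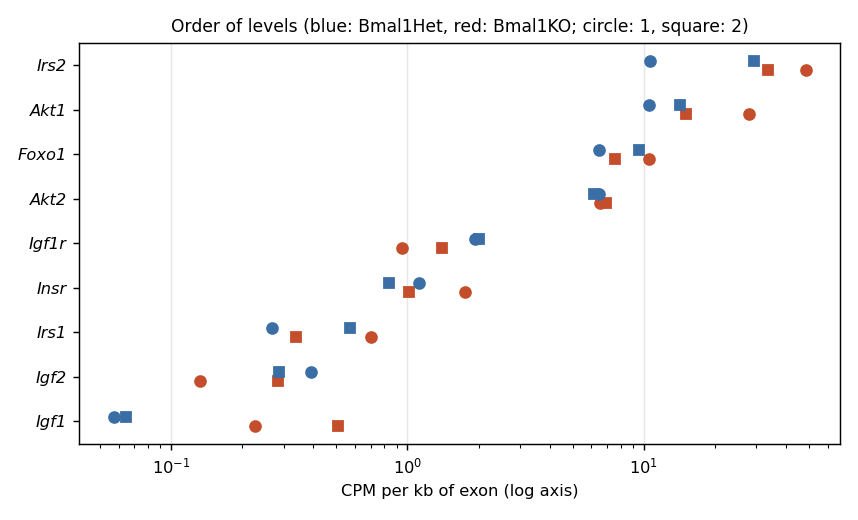
Level of each of the 9 genes in CPM per kb of exon (log axis), 1 point per library; blue points are the heterozygous label, red points the KO label, circles replicate 1 and squares replicate 2. Irs2 and Akt1 lead, and Igf2 and Igf1, with means of 0.274 and 0.215 CPM per kb, are lowest.

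None of the 9 genes passed the comparison of the KO label with the heterozygous label (edgeR's quasi-likelihood test, adjusted p under 0.05 over all genes tested). Over all tested genes 2.54% passed, 176 higher and 196 lower in the KO label, so 0 of 9 is near the background. At an unadjusted p under 0.05 there were 4 of 9, against 16.9% of all tested genes: Igf1, Irs2 and Akt1 with a higher level (9.12% of tested genes) and Igf1r with a lower one (7.75%). DESeq2 called 1, Igf1, as higher (4.23% of tested genes), and limma-voom called 0. For 6 of the 9 genes the KO libraries lay wholly above or below the others, against 49.0% of all tested genes; Igf1, Irs2, Akt1 and Akt2 lay above (25.3% of tested genes) and Igf1r and Igf2 below (23.8%). The median log2 fold change of the 9 was 0.30, beside 0.024 over all tested genes, and is the estimate of Irs1. Estimates were positive for 7 of the 9 and for 7670 of the 14649 tested genes. Irs1 and Foxo1, both among the 7, changed sign when KO replicate 1 or heterozygous replicate 1 was left out. The rest of the account gives each gene by its role, as CPM and as log2 fold changes of the KO label over the heterozygous label.

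**Figure D2:**
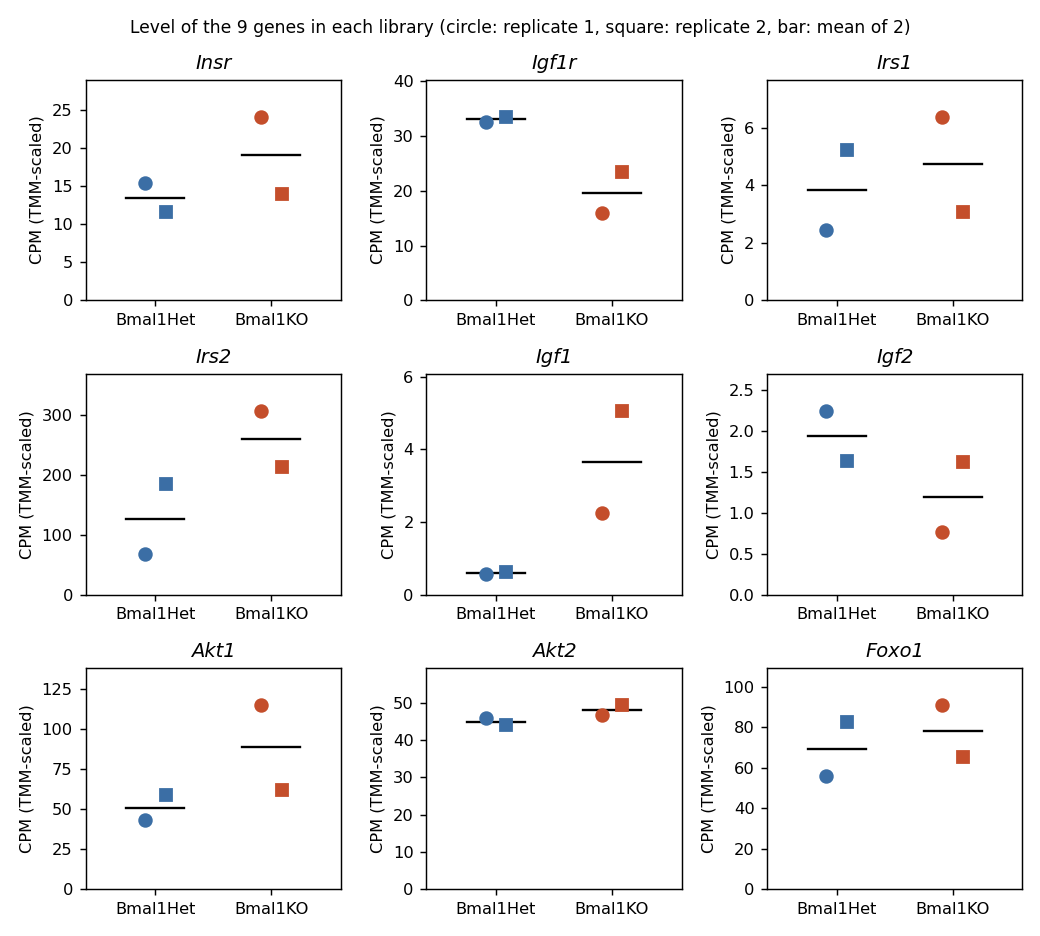
CPM of each gene in each library (linear axes from 0); circles are replicate 1, squares replicate 2, and bars the mean of 2 libraries. Irs2 is lowest in heterozygous replicate 1 (67.5 CPM), and Igf1r is lower in both libraries labelled KO (15.95 and 23.5 CPM) than in the others.

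The ligands were the least abundant members and had estimates of opposite sign, neither past the threshold in edgeR's test. Igf1 (chromosome 10, 87858265 to 87937042, plus strand), which encodes a secreted growth factor made in many tissues, was at 2.25 and 5.06 CPM in KO replicates 1 and 2 and at 0.568 and 0.636 CPM in heterozygous replicates 1 and 2. Both libraries labelled KO lay above the others, KO replicate 2 most. The underlying counts were 74 and 162 against 22 and 21. The means were 3.66 ± 1.98 and 0.602 ± 0.0478 CPM (SD, n = 2), a log2 fold change of 2.60 (SE 0.68, 95% interval 0.99 to 4.21) with an edgeR adjusted p of 0.112. DESeq2 gave 2.60 with an adjusted p of 0.0151, and the adjusted p ranged from 0.0151 to 0.458 over the alternatives. Without KO replicate 2 the log2 fold change was 1.90 (edgeR adjusted p = 0.253). Igf2 (chromosome 7, 142650766 to 142666816, minus strand), the growth factor prominent in the fetus, was at 0.761 and 1.62 CPM against 2.25 and 1.63 CPM. KO replicate 2 and heterozygous replicate 2 were level with each other, with 52 and 54 counts, so the groups were barely apart. Its log2 fold change was -0.70 (SE 0.72, 95% interval -2.39 to 0.99, edgeR adjusted p = 0.691). Of the exon bases of Igf2, 62.8% are shared with the overlapping gene model Gm49394 on the same strand. Gm49394 was not matched by symbol among the counted genes, and how reads in the shared bases were counted is not stated.

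Marker levels of other cells are given beside Igf1 for the same libraries. Of 9 stromal and mural markers 7 were tested and 3 were higher in the KO label (Col1a2, Lum and Pdgfra), and their summed level was 133 and 362 CPM in KO replicates 1 and 2 against 58.2 and 17.3 CPM in heterozygous replicates 1 and 2; Pdgfra had 0 counts in both of the latter, and Pdgfrb and Rgs5 had 0 in heterozygous replicate 2. Of 8 macrophage and immune markers found in the table (9 listed), 1 was higher (Cd14) and none was at 0, and the sums were 269.9 and 744 CPM against 212 and 234 CPM. Lyz2 was the largest part of the sum in KO replicate 2, at 322 CPM. Cd68, Lyz2, Cd14 and C1qb lay above in both libraries labelled KO, and Ptprc, Csf1r, Itgam and C1qa overlapped between the groups. Of 5 endothelial markers 3 were tested and 0 passed in edgeR's test, where 2 (Pecam1 and Plvap) had an unadjusted p under 0.05, and the sums were 17.1 and 4.93 CPM against 1.39 and 2.27 CPM; Cdh5, Kdr and Flt1 had 0 counts in at least 1 library. The sum of 7 markers of other islet cells, of which Irx2 passed, was 4174 and 8748 CPM against 3626 and 3387 CPM, with Ppy, the pancreatic polypeptide gene, at 1974 and 4008 against 1319 and 1046 CPM (edgeR adjusted p = 0.085). Like Igf1, the stromal, immune and other islet sums were highest in KO replicate 2, and the endothelial sum was highest in KO replicate 1. The part of these cells in the Igf1 level was not tested.

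**Figure D3:**
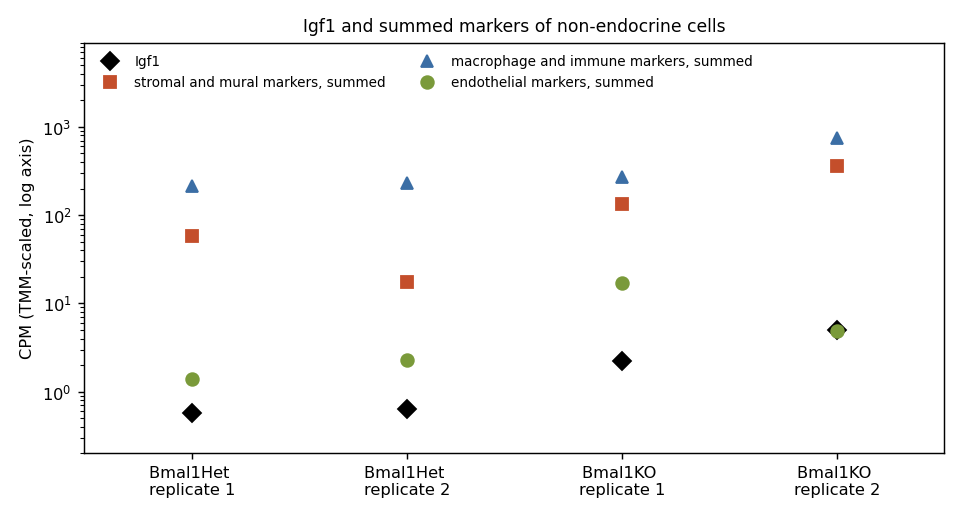
Igf1 and the summed levels of 3 marker lists in each library, in CPM on a log axis. Igf1 and the stromal sum are higher in both libraries labelled KO than in those labelled heterozygous (stromal 133 and 362 against 58.2 and 17.3 CPM).

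To name the genes most alike, each gene's log2 CPM was centred on its own mean and compared over the 4 libraries with that of Igf1, the member with the smallest p. The nearest of 8908 genes were Sparc, a matrix protein gene (root mean square distance 0.17 log2 units), Plk2, a kinase gene (0.30), and Col18a1, a basement membrane collagen gene (0.32). Sparc was at 20.7 and 49.4 CPM in KO replicates 1 and 2 against 7.62 and 7.23 CPM, the same order of libraries as the stromal sum in the KO label. With 4 libraries such likeness is a description.

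The 2 receptors had estimates of opposite sign. Igf1r (chromosome 7, 67952827 to 68233668, plus strand), the receptor of both IGFs, was at 15.95 and 23.5 CPM in KO replicates 1 and 2 and at 32.6 and 33.6 CPM in heterozygous replicates 1 and 2. Both libraries labelled KO lay below the others, and the heterozygous replicates were close to each other. The means were 19.7 ± 5.30 and 33.1 ± 0.715 CPM (SD, n = 2), 1.68 times lower in the KO label, a log2 fold change of -0.75 (SE 0.24, 95% interval -1.30 to -0.19) with an edgeR adjusted p of 0.171. Without KO replicate 2 it passed, at -1.06 (edgeR adjusted p = 0.0442), and over all alternatives the adjusted p ran from 0.0442 to 0.581. Insr (chromosome 8, 3122061 to 3279617, minus strand), the insulin receptor, was at 24.1 and 14.0 CPM against 15.4 and 11.5 CPM. KO replicate 1 was above the rest and KO replicate 2 lay between the heterozygous replicates. The log2 fold change was 0.50 (SE 0.33, 95% interval -0.27 to 1.27, edgeR adjusted p = 0.507) and 0.031 without KO replicate 1, so the estimate rests on that library. The genes nearest Igf1r in pattern, among 8907, were Pi4k2b, a phosphatidylinositol kinase gene (distance 0.017 log2 units), Myo5b, a myosin motor gene (0.034), and Tmem231 (0.038); Pi4k2b was at 30.6 and 46.0 CPM in the KO label against 64.5 and 65.2 CPM.

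Irs2 was the more abundant of the receptor substrates and the more variable between the heterozygous libraries. Irs2 (chromosome 8, 10984681 to 11008458, minus strand), the adaptor whose promoter is printed above, was at 307 and 212 CPM in KO replicates 1 and 2 and at 67.5 and 185 CPM in heterozygous replicates 1 and 2. Heterozygous replicate 1 was far below the other 3 libraries, and heterozygous replicate 2 was close to KO replicate 2. The means were 260 ± 66.9 and 126 ± 83.3 CPM (SD, n = 2), a log2 fold change of 1.04 (SE 0.43, 95% interval 0.031 to 2.05) with an edgeR adjusted p of 0.281. It was 0.48 without heterozygous replicate 1 and 1.93 without heterozygous replicate 2 (edgeR adjusted p = 0.636 and 0.0557). Irs1 (chromosome 1, 82233101 to 82291416, minus strand), the adaptor better known from muscle and fat, was at 6.39 and 3.09 CPM against 2.45 and 5.24 CPM. The groups overlapped, and the log2 fold change of 0.30 (SE 0.56, 95% interval -1.02 to 1.63, edgeR adjusted p = 0.846) turned to -0.34 without KO replicate 1 and to -0.15 without heterozygous replicate 1. An antisense gene model, Gm9747, overlaps 30.9% of its exon bases, and the library kit does not mark strand, so reads of the 2 cannot be told apart; Gm9747 was not matched by symbol among the counted genes. Opposite-strand models also overlap 2.6% of the exon bases of Irs2 and 7.8% of those of Foxo1. Within the heterozygous label both substrates were higher in replicate 2, and within the KO label both were higher in replicate 1.

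Of the 2 AKT kinases, Akt2 was the member that varied least over the 4 libraries relative to its mean. Akt1 (chromosome 12, 112653821 to 112674884, minus strand), which is tied to growth and survival, was at 114.8 and 61.9 CPM in KO replicates 1 and 2 and at 43.3 and 58.4 CPM in heterozygous replicates 1 and 2. KO replicate 1 was high, and KO replicate 2 was just above heterozygous replicate 2. The means were 88.4 ± 37.4 and 50.8 ± 10.7 CPM (SD, n = 2), a log2 fold change of 0.80 (SE 0.30, 95% interval 0.092 to 1.51) with an edgeR adjusted p of 0.239. Without KO replicate 2 it was 1.17 and passed (edgeR adjusted p = 0.0289), and without KO replicate 1 it was 0.26 (edgeR adjusted p = 0.610). Akt2 (chromosome 7, 27591552 to 27640826, plus strand), which carries the insulin signal to glucose uptake in muscle and fat, was at 46.8 and 49.5 CPM against 46.0 and 44.1 CPM. Its log2 fold change was 0.097 (SE 0.16, edgeR adjusted p = 0.824), with a 95% interval of -0.28 to 0.47, and it stayed between 0.053 and 0.15 under every alternative run. Foxo1 (chromosome 3, 52268336 to 52353221, plus strand), the transcription factor that AKT keeps out of the nucleus, was at 91.1 and 65.5 CPM against 56.0 and 82.5 CPM. The groups overlapped, with a log2 fold change of 0.18 (SE 0.24, 95% interval -0.39 to 0.74; edgeR, adjusted p = 0.779), and it turned to -0.11 without KO replicate 1 and to -0.082 without heterozygous replicate 1.

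Insr, Irs1, Irs2, Akt1 and Foxo1 were each highest in KO replicate 1, the library that also stood apart in Xist. Without that library the log2 fold changes were 0.031 for Insr, -0.34 for Irs1, 0.72 for Irs2, 0.26 for Akt1 and -0.11 for Foxo1. Igf1r and Igf2 were each lowest in it, at -0.52 and -0.28 without it. The Y-linked gene Ddx3y was also highest in this library, at 89.1 CPM against 23.8 CPM in KO replicate 2 and 20.5 and 12.1 CPM in heterozygous replicates 1 and 2. So was the summed level of 6 acinar markers, at 99.4 CPM against 41.9, 29.2 and 8.72 CPM, with 4 tested, 4 estimates positive and 0 past the threshold in edgeR's test, and Amy2a5 at 0 counts in every library. The sum of 5 duct markers was 151 CPM in KO replicate 1 against 109, 119 and 112 CPM, with 4 tested, 4 estimates positive and 0 past the threshold. Spp1 made up most of it, at 128 CPM against 100, 113 and 107 CPM. Sox9 and Muc1 had an unadjusted p under 0.05 in edgeR's test. Sox9 was at 6.42 and 6.00 CPM in KO replicates 1 and 2 against 1.21 and 2.48 CPM. Muc1 was at 7.82 and 1.78 CPM against 1.65 and 0.363 CPM. The part of sex-linked RNA, of these cells or of other differences of this library in these values was not tested.

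**Figure D4:**
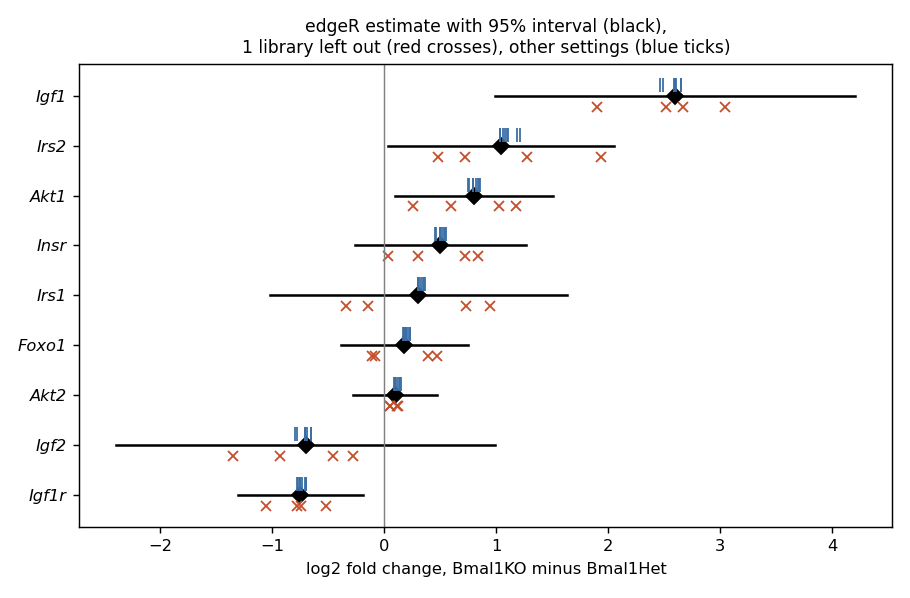
Log2 fold change of the KO label over the heterozygous label for each gene: black diamonds are edgeR's estimates with 95% intervals, red crosses the values with 1 library left out, blue ticks the other settings. Igf1 (2.60) and Igf1r (-0.75) are at the ends, and the crosses of Irs1 and Foxo1 fall on both sides of 0.

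Other genes of the pathway were taken from 6 lists of 95 genes by role; 94 were in the table and 88 were tested. In edgeR's test 1 was higher in the KO label and 0 were lower, against 1.20% and 1.34% of all tested genes, and at an unadjusted p under 0.05 there were 10 higher and 6 lower, against 9.12% and 7.75% of all tested genes. DESeq2 called 4 higher and 3 lower, against 4.23% and 3.82% of all tested genes, and limma-voom 1 and 0, against 1.12% and 1.49%. These counts are near the background. The median log2 fold change over the 88 was -0.014. The gene that passed was Pdk4, a FOXO target whose product restrains pyruvate dehydrogenase. Pdk4 was at 8.65 and 12.0 CPM in KO replicates 1 and 2 and at 1.32 and 1.15 CPM in heterozygous replicates 1 and 2. The groups were well apart, with means of 10.3 ± 2.39 and 1.23 ± 0.118 CPM (SD, n = 2) and a log2 fold change of 3.06 (SE 0.41), past the threshold with an edgeR adjusted p of 0.0175. Without heterozygous replicate 2 no pathway gene passed.

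In the list of FOXO factors and textbook FOXO targets, 18 of 20 genes were tested, 1 rose, 17 did not pass and 13 estimates were positive, with a median of 0.67. At an unadjusted p under 0.05 there were 7 higher and 0 lower in this list, against 9.12% and 7.75% of all tested genes; the list was not tested against other genes. The stromal, immune and endothelial marker sums given beside Igf1 differed between the same libraries, and their part in the levels of Pdk4 and this list was not tested. Among ligand-binding proteins and other receptors, 10 of 13 were tested and 0 passed in edgeR's test, where 3 had an unadjusted p under 0.05 and DESeq2 called 2 (Igfbp4 and Igfals). Igfals, which holds IGFs in a complex in blood, was at 38.1 and 34.3 CPM against 62.2 and 61.6 CPM, and its log2 fold change of -0.78 (SE 0.16) had an edgeR adjusted p of 0.0617. Igfbp4, an IGF-binding protein, was at 7.43 and 8.87 CPM against 3.77 and 1.79 CPM (1.55, edgeR adjusted p = 0.160).

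Between the receptors and AKT, 14 of 15 adaptors and brakes were tested and 0 passed in edgeR's test, where 2 had an unadjusted p under 0.05 and DESeq2 called the same 2. These were Ptprf, a receptor phosphatase (log2 fold change -0.42, edgeR adjusted p = 0.174), and Shc1, the adaptor toward RAS (-0.76, edgeR adjusted p = 0.183). Of 11 PI3-kinase genes and phosphoinositide phosphatases 0 passed in edgeR's test or in DESeq2, and 2 had an unadjusted p under 0.05: Pik3ip1, an inhibitor of PI3-kinase (0.95), and Pik3r3, a regulatory subunit (-0.53). In the list of AKT regulators and the mTOR branch 25 genes were tested and 0 passed in either tool, and 2 had an unadjusted p under 0.05, among them Tbc1d1, an AKT substrate (-0.52). That list had the smallest typical difference of the 6, with a median absolute log2 fold change of 0.15. It was 0.29 over all tested genes and 0.70 over the 9 members. The 0.70 is the value of Igf2 (SE 0.72, 25 to 87 counts per library) and is imprecise. Of 10 tested genes of the RAS and ERK branch 0 passed in either tool and 0 had an unadjusted p under 0.05; Mapk3, an ERK kinase gene, was at 0.24.

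**Figure D5:**
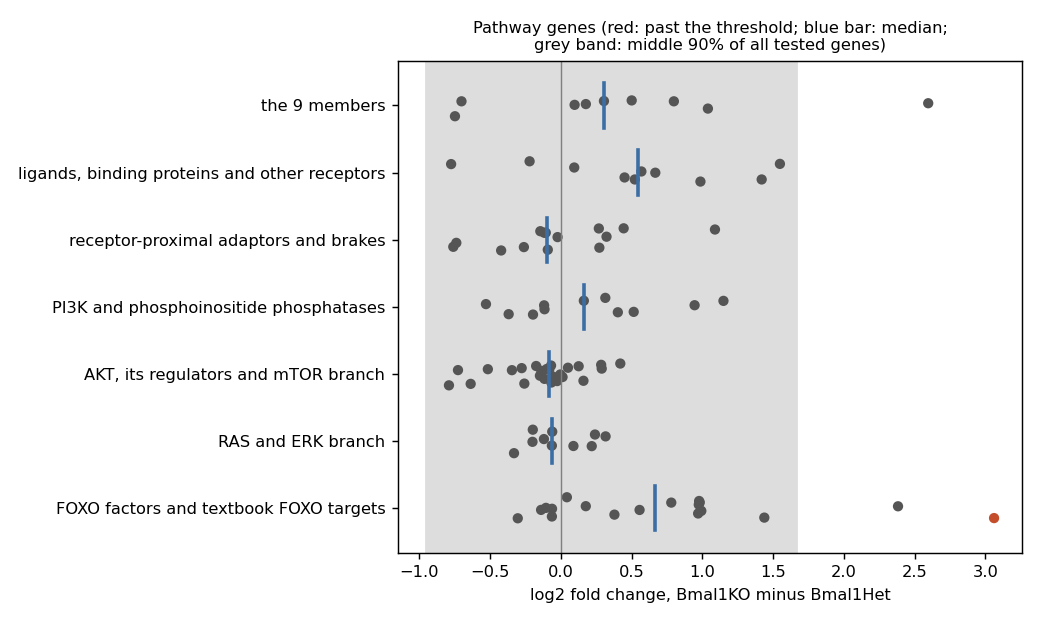
Log2 fold change of the KO label over the heterozygous label for each tested gene of the 9 members and the 6 pathway lists; blue bars are medians and the grey band holds the middle 90% of all tested genes (-0.95 to 1.67). Pdk4, in red at 3.06, is the gene past the threshold.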

How the data were processed

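Per the labels' protocols, libraries were prepared from column-purified RNA of the sorted cells using SMART-Seq v4 reagents for low input. The authors deposited unnormalized whole-number counts of reads for each gene symbol, used here for every value; a scaled table of the same libraries was not used. STAR, edgeR and mm10 are named, without versions or roles, per the submitters' processing notes; the counting tool, its strand setting and its annotation are not stated there. Each total of 31056116 to 38020488 counts makes 3 counts equal to 0.0775 to 0.0937 CPM, for counting error only, as reads carry no molecular identifiers. Replicates differed beyond sampling noise (chi-square per gene 66.7 for KO, 44.8 for heterozygous).

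Counts were filtered with filterByExpr (minimum count 10, total 15) and TMM-scaled; testing used edgeR 4.0.16 in R 4.3.3 (glmQLFit, glmQLFTest, 2-sided, Benjamini-Hochberg over all genes, threshold 0.05), with group as the only term. SE is the log2 fold change over the square root of F. The procedure was tested on simulated data. Alternatives were other scalings and filters, DESeq2 1.42.0, limma 3.58.1 (voom), a replicate block and leaving out each library. The members and lists were chosen with earlier results of these data known. All 9 members are named; of each other list, up to 5 genes past the threshold or else the 2 with the smallest p; for the 2 members with the smallest p, the 3 most alike genes with a mean of 10 CPM or more (prior count 2). Markers are named where a level is given. Insrr and the genes called by an alternative alone were named after their values were seen. Exon lengths and coordinates are from GENCODE M21 (GRCm38), and the authors' gene models may differ. Values of some listed genes are not reported here.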

Additional observations from a re-analysis of the deposited data

How the results depend on the processing

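Of the 9 genes, Insr, Igf1r, Irs2, Igf1, Igf2, Akt1 and Akt2 kept the sign of their difference under every alternative that gave a value; Irs1 and Foxo1 did not. A filter at a mean of 5 CPM dropped Igf1, Igf2 and Irs1, which then have no value. No member passed under the 4 other scalings, either filter, limma-voom or the replicate block. With DESeq2 1 member was higher, Igf1 (log2 fold change 2.60). Leaving out 1 library gave 0 to 1 members higher and 0 to 1 lower, with ranges of 1.90 to 3.04 for Igf1, -1.35 to -0.28 for Igf2, -1.06 to -0.52 for Igf1r, 0.26 to 1.17 for Akt1, -0.34 to 0.94 for Irs1 and -0.11 to 0.47 for Foxo1; the calls of Igf1r and Akt1 came without KO replicate 2. Irs1 was at -0.34 and -0.15, and Foxo1 at -0.11 and -0.082, without KO replicate 1 and heterozygous replicate 1; the cause was not tested. Other pathway genes higher were 2 without a filter (Pdk4, Gadd45a), 4 with DESeq2 (Pdk4, Igfbp4, Gadd45a, Cat), 2 with the replicate block (Pdk4, Txnip) and 0 to 5 leaving out 1 library. Lower were 1 without a filter and 1 at 5 CPM or more (Igfals), 3 with DESeq2 (Igfals, Shc1, Ptprf) and 0 to 1 leaving out 1 library. Over all tested genes 430 were higher and 378 lower without a filter, 266 higher at 5 CPM or more, 619 higher and 560 lower with DESeq2, and 313 higher with the replicate block. Leaving out 1 library gave 17 to 404 higher and 8 to 422 lower, the smallest counts without heterozygous replicate 2 and the largest without KO replicate 2. Same-numbered libraries did not deviate together (correlation -0.019 across genes), so the numbers are not taken to pair them. The low counts of Igf1 and Igf2, 21 to 162 per library, limit what can be seen of them. The largest shift of the median log2 fold change of all genes under another scaling was 0.050.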

Other observations

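The insulin receptor-related receptor gene Insrr, an orphan member of the receptor family, was far more abundant than Insr in every library; it is named after its values were seen. Insrr was at 921 and 969 CPM in KO replicates 1 and 2 and at 1028 and 741 CPM in heterozygous replicates 1 and 2. Per kb of exon its level was 92.0 to 167 times that of Insr within a library. The groups overlapped, with a log2 fold change of 0.095 (SE 0.18, 95% interval -0.32 to 0.51, edgeR adjusted p = 0.848).

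Ratios of 2 genes within a library do not depend on the scaling between libraries, and are given per kb of exon with no test. The ratio of Insr to Igf1r was 1.84 and 0.729 in KO replicates 1 and 2 and 0.576 and 0.419 in heterozygous replicates 1 and 2, so that Insr exceeded Igf1r in KO replicate 1 and was below it in the other 3 libraries. The ratio of Igf2 to Igf1 was 0.585 and 0.556 in the libraries labelled KO against 6.84 and 4.45. As counted, the more abundant of the 2 IGF ligand RNAs thus differed between the labels. The marker levels given beside Igf1 and the low counts of both genes apply here as well. How reads were counted in the 62.8% of Igf2 exon bases shared with Gm49394 is not stated, so this order of the ligands is uncertain. The ratio of Akt1 to Akt2 was 4.27 and 2.18 against 1.64 and 2.31, and the groups overlapped. The ratio of Irs2 to Irs1 was 69.5 and 99.4 against 39.8 and 51.2.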
